A study of Mus musculus with 4 samples.

Results

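Nbea, Fryl, Psap, Elmo2, Bin1, Cask, Limk2, Epb4.1l2 and Ciz1 are 9 mouse genes, of 15446 with an event in the splicing tables, that carry some of the strongest switches in exon use after knockdown of Arglu1 in N2a cells. They were picked for large differences in percent spliced in (PSI) between siArglu1 and siControl libraries, with or without dexamethasone (Dex). The PSI differences below therefore describe how the genes were chosen and are given without a test. N2a (Neuro-2a) is a mouse neuroblastoma cell line, ARGLU1 is a nuclear protein rich in arginine and glutamate that acts as a coregulator of hormone receptors and of splicing, and Dex is a synthetic ligand of the glucocorticoid receptor. Cells received a non-targeting pool of control siRNAs (siControl) or a single siRNA against Arglu1 (siArglu1) for 48 h. They then received ethanol vehicle (Veh) or 100 nM Dex for 4 h. Each of the 4 groups was 1 library made from 3 pooled cultures, so no spread between replicates can be given, and no difference below has a replicate test. The knockdown could be compared in 2 pairs of libraries, a vehicle pair and a Dex pair.

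A cassette exon is an internal exon that can be included or left out, and a microexon is one of at most 15 nt in the deposited tables. An alternative 3′ or 5′ splice site moves 1 edge of an exon. PSI is the percentage of transcripts that include the exon or use the site. Neurons include many microexons that other cells leave out. Such exons often add a few residues to proteins of the membrane, the cytoskeleton and vesicle traffic without shifting the reading frame. Several of the 9 genes encode proteins of these kinds. Among the switches below, only the 9-nt exons of Nbea, Fryl and Psap are microexons. Neurobeachin (Nbea) helps to bring receptors to synapses, Cask is a scaffold of the synaptic membrane, Bin1 bends membranes and Epb4.1l2 (protein 4.1G) ties the membrane to the spectrin and actin skeleton. Elmo2 works with DOCK proteins to activate Rac, Limk2 is a kinase of the actin-severing protein cofilin, and Fryl belongs to the Furry family of very large proteins. Prosaposin (Psap) is cut into the saposins, which help lysosomal enzymes to degrade sphingolipids, and Ciz1 takes part in the start of DNA replication.

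The sequences of the switching exons are shown first because the finding is whether these bases are in the mRNA. Each deposited event (coordinates in the mm9 build) was matched to GENCODE M21 transcripts (GRCm38 build) of the same gene by exon length and by the distances to the neighbouring splice sites, with no coordinate carried from one build to the other. Of the 13 cassette exons and microexons that switched in both pairs, 12 were found in this way and the 9-nt exon of Fryl was not. In the sequences, capitals mark the switching exon or extension and lower case the 15 bases of the spliced transcript on each side. The 4 shortest exons found, in which PSI fell after knockdown, were the following.
Nbea 9 nt, GRCm38 chr3:55994048-55994056, minus strand: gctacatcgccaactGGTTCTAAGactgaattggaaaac
Psap 9 nt, GRCm38 chr10:60297537-60297545, plus strand: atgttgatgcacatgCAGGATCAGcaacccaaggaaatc
Fryl 18 nt, GRCm38 chr5:73024771-73024788, minus strand: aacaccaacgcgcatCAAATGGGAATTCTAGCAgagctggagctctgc
Elmo2 36 nt, GRCm38 chr2:165303666-165303701, minus strand: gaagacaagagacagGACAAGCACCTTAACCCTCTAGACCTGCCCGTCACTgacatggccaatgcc
All 4 lie in coding sequence, have a length that is a multiple of 3 and hold no stop codon in the annotated frame. In M21 each of the 4 was in 1 annotated transcript. Transcripts that leave the exon out numbered 0 for Nbea, 4 for Psap, 5 for the 18-nt exon of Fryl and 6 for Elmo2.

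The extension of Cask and the exons of Epb4.1l2 and Ciz1, in which PSI rose, are set out next because several of them neighbour each other.
Cask 15-nt extension, exon GRCm38 chrX:13537761-13537841, minus strand: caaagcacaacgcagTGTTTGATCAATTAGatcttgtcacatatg
Epb4.1l2 63 nt, GRCm38 chr10:25493567-25493629, plus strand: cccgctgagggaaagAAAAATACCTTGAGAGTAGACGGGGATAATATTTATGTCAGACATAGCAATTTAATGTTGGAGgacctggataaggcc
Epb4.1l2 147 nt, GRCm38 chr10:25495445-25495591, plus strand: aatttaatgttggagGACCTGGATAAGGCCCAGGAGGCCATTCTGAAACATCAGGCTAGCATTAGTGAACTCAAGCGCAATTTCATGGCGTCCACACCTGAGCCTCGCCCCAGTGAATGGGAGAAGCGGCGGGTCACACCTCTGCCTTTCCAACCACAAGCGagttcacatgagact
Epb4.1l2 54 nt, GRCm38 chr10:25501578-25501631, plus strand: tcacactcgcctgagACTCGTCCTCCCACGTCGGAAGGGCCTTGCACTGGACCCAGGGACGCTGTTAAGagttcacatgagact
Ciz1 72 nt, GRCm38 chr2:32365803-32365874, plus strand: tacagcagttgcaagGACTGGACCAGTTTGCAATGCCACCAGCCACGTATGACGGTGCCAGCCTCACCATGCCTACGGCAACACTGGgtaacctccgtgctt
The 63-nt exon of Epb4.1l2 runs directly into the 147-nt exon, and the 147-nt and 54-nt exons are both followed by the same downstream exon, as the shared bases at their 3′ sides show. The 72-nt exon of Ciz1 follows an exon of 116 nt that also switched. These 5 sequences are coding in M21 and hold no stop codon in the annotated frame.

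The tables held 130 events in the 9 genes, of 91656 events in all. An event counted as covered where PSI was given in all 4 libraries and the coverage score was at least LOW in 3 of them, which for splice sites stood for 20 junction reads or more. Covered were 119 of the 130 (39 complex and 33 simple cassette exons, 7 microexons, 24 alternative 3′ and 16 alternative 5′ splice sites), of 57183 in the whole series. Of the 119, 15 differed by at least 15 PSI between the vehicle libraries and 14 between the Dex libraries. Among all covered events the shares were 1.96% (1118 events) and 1.52% (869 events). The 14 events of the Dex pair were also past 15 PSI, in the same direction, in the vehicle pair. PSI was higher after knockdown in 7 of them and lower in 7, against 0.210% higher and 0.336% lower of all covered events. Each of the 9 genes had at least 1 of the 14. Since the genes were picked by these differences, nothing is read from the counts. The median size of the 14 differences was 33.19 PSI with vehicle and 33.95 with Dex.

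**Figure D1:**
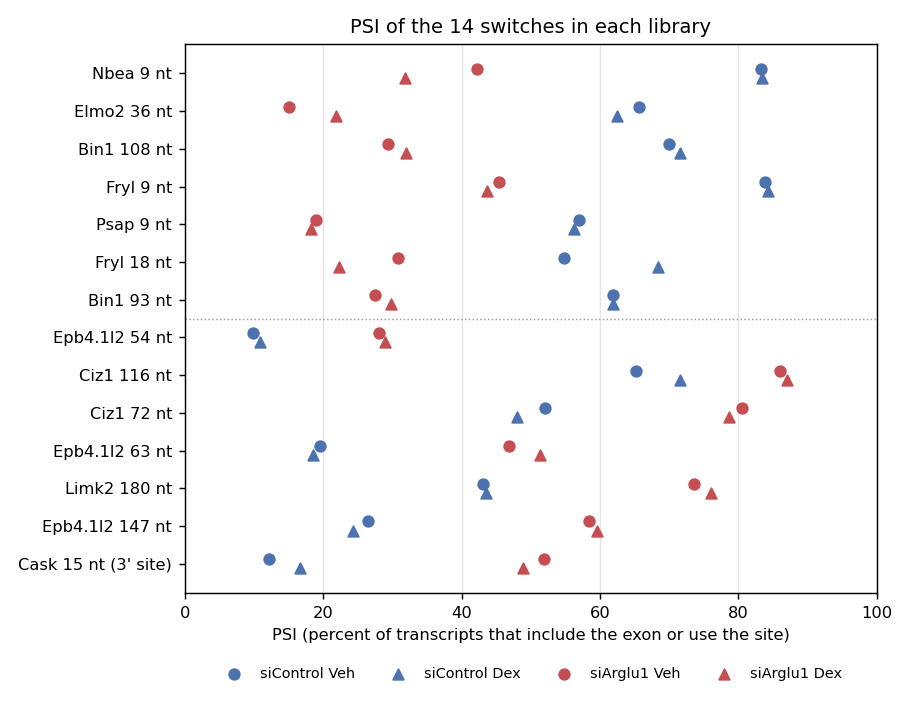
PSI of the 14 exons or sites that differed by at least 15 PSI in both pairs, 1 row each, with PSI from 0 to 100 percent on the x axis, 1 point per library (blue siControl, red siArglu1, circles Veh, triangles Dex). Both siArglu1 points lie left of both siControl points in the 7 rows above the dotted line and right of them in the 7 rows below it, and circles and triangles of 1 colour mostly lie close together.

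Switches with lower PSI after knockdown are described first. The 9-nt exon of Nbea (mm9 chr3:55797970-55797978) was included at a PSI of 83.22 (Veh) and 83.47 (Dex) in the siControl libraries and of 42.17 (Veh) and 31.83 (Dex) in the siArglu1 libraries. The form with the exon went from the main to the minor one, and PSI fell by 41.05 with vehicle and fell by 51.64 with Dex. The 9-nt exon of Fryl (mm9 chr5:73442106-73442114) had 83.77 and 84.34 in siControl and 45.45 and 43.67 in siArglu1, in the order Veh, Dex. No M21 transcript matched this exon, while 5 matched the form without it. A second exon of Fryl, of 18 nt (mm9 chr5:73416010-73416027), had 54.73 and 68.39 in siControl against 30.82 and 22.32 in siArglu1. Its PSI fell by 23.91 with vehicle and fell by 46.07 with Dex, the widest gap between the pairs among the 14 switches (22.16 PSI).

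The 9-nt exon of Psap (mm9 chr10:59760285-59760293) had PSI of 56.9 and 56.3 in the siControl libraries and 18.95 and 18.28 in the siArglu1 libraries. Psap was the most abundant of the 9 genes, with 63673 to 94755 reads per library, and the splice site tables held reads over the junction that leaves this exon out. That junction had 1096 (Veh) and 1128 (Dex) reads in siControl cells and 1965 (Veh) and 2789 (Dex) in siArglu1 cells. Per 100 reads over the junction just before it in the gene, the skipping junction had 40.8, 38.6, 84.7 and 84.5 reads in the same order, so the siArglu1 libraries were about as high as each other and above both siControl libraries. Per 100 reads over the junction just after it the values were 30.6, 28.4, 56.2 and 57.8. These reads come from the same libraries as the PSI values, and skipping reads are part of what the PSI of this exon measures. They restate the difference by which Psap was picked and are no separate support for it. The ratios are not corrected for how well each junction can be mapped.

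The 36-nt exon of Elmo2 (mm9 chr2:165129166-165129201) had PSI of 65.65 and 62.52 in siControl and 15.03 and 21.86 in siArglu1. PSI fell by 50.62 in the vehicle pair, the largest difference there among the covered events of the 9 genes. Bin1 carried 2 switching exons far apart in the gene. Its 93-nt exon (mm9 chr18:32574599-32574691) had 61.9 and 61.86 in siControl and 27.46 and 29.82 in siArglu1, and its 108-nt exon (mm9 chr18:32588850-32588957) had 69.92 and 71.53 against 29.31 and 31.95. In M21 each of the 2 was in 1 coding transcript, the same for both, and both were lower in both siArglu1 libraries than in either siControl library. No sequence is given here for Bin1.

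In Cask the switch was a choice of 3′ splice site. The upstream site, which adds 15 nt to an exon (mm9 chrX:13114887-13114967), was the minor site in siControl and was used about equally with the other site in siArglu1. Its PSI was 12.18 for siControl Veh (19 of 156 junction reads, exact Clopper-Pearson 95% interval 7.5 to 18.4) and 16.67 for siControl Dex (25 of 150, 11.1 to 23.6). In siArglu1 Veh it was 51.88 (69 of 133, 43.1 to 60.6) and in siArglu1 Dex 48.84 (84 of 172, 41.2 to 56.6). The intervals cover counting error only. M21 had 5 transcripts with the longer exon and none with the shorter one.

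Epb4.1l2 had 3 switching exons, all used more after knockdown. The 63-nt exon (mm9 chr10:25213373-25213435) had PSI of 19.54 and 18.57 in siControl and 46.89 and 51.28 in siArglu1. The adjoining 147-nt exon (mm9 chr10:25215251-25215397) had 26.54 and 24.37 against 58.47 and 59.56, and the 54-nt exon (mm9 chr10:25221384-25221437) had 9.82 and 10.87 against 28.1 and 28.87. The 3 exons share neighbours and junction reads, so they are not independent measurements.

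In Ciz1, PSI of the 72-nt exon (mm9 chr2:32221323-32221394) was 52.1 and 48.05 in siControl and 80.52 and 78.68 in siArglu1, and PSI of the preceding 116-nt exon (mm9 chr2:32219739-32219854) was 65.18 and 71.53 against 86.05 and 87.04. The 116-nt exon was the switch whose length is not a multiple of 3. In Limk2, PSI of a 180-nt exon (mm9 chr11:3268986-3269165) was 43.15 and 43.49 in siControl and 73.54 and 76.0 in siArglu1. M21 listed this exon only as the first exon of 1 non-coding transcript, and 6 other Limk2 transcripts pass over it, so the value may mix exon inclusion with a start of transcription there, which were not told apart.

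The deposited files also rate how evenly the 2 inclusion junctions of an exon are covered and how many reads fall on other junctions. For 6 of the 14 switches these ratings were in the poorer classes (balance class B2 or Bn, or complexity C3) in at least 1 library. They were the 3 exons of Epb4.1l2, the 180-nt exon of Limk2, the 108-nt exon of Bin1 and the 116-nt exon of Ciz1. The Limk2 exon and the 108-nt Bin1 exon were Bn with C3 in all 4 libraries. Class Bn was also given to exons with almost no inclusion, such as a 27-nt exon of Cask (PSI from 0.0 to 1.82). It may thus stand for few reads on the inclusion junctions, a stronger limit than uneven reads. The other 8 switches (Nbea, both Fryl exons, Psap, Elmo2, the 93-nt Bin1 exon, Cask and the 72-nt Ciz1 exon) were in none of these classes. Microexons are given neither rating, and splice sites only the one for complexity.

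**Figure D2:**
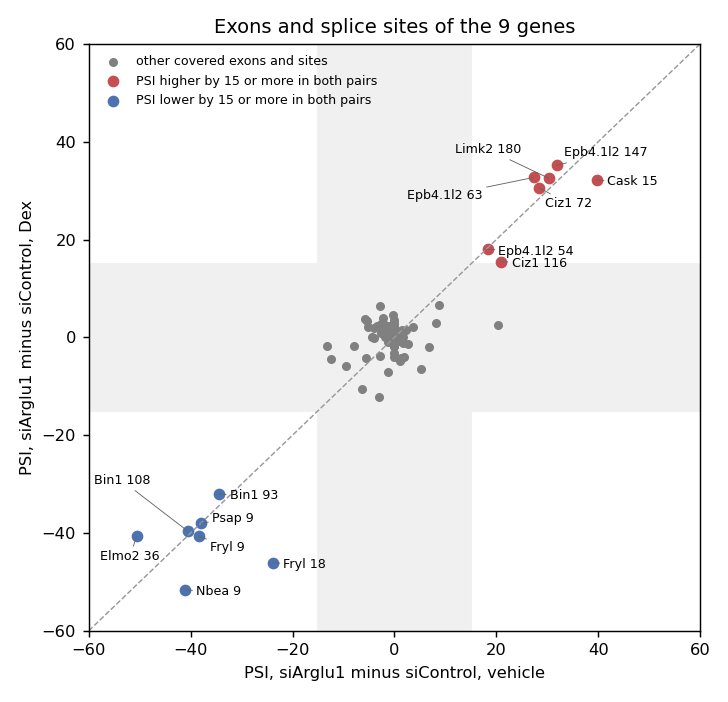
Difference in PSI, siArglu1 minus siControl, in the vehicle pair (x axis) and in the Dex pair (y axis) for every covered exon and splice site of the 9 genes, with the gene and length in nt beside the 14 switches. Grey bands mark differences under 15 PSI. Most other sites gather around 0 and reach -13.33 on the x axis and -12.2 on the y axis, with 1 grey point at 20.41 on the x axis, a Fryl exon with the lowest score there. The Ciz1 116-nt and Epb4.1l2 54-nt exons lie just past the bands.

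Most covered events of the same genes stayed under 15 PSI in both pairs. These 104 events (111 sites) had a median difference of 0.41 PSI in size with vehicle and 0.95 with Dex. The medians within single genes lay between 0.0 (Psap) and 1.63 (Nbea) in the vehicle pair. The events were set apart by their small differences, and many, such as most sites of Psap and Elmo2, lay near a PSI of 0 or 100 in all 4 libraries. Nothing is therefore read from these medians. A 15th event was past 15 PSI in the vehicle pair only. It was a 128-nt exon in the 5′ UTR of Fryl (mm9 chr5:73586225-73586352), with PSI of 79.59 and 90.48 in siControl and 100.0 and 93.1 in siArglu1, and its score in siArglu1 Veh was N, the lowest class. Just inside the threshold lay the 116-nt exon of Ciz1 (20.87 and 15.51 PSI) and the 54-nt exon of Epb4.1l2 (18.28 and 18.0). Just outside lay a 120-nt exon of Nbea, whose PSI fell by 13.33 in the vehicle pair and by 1.78 in the Dex pair with score N in siArglu1 Veh, and a 72-nt exon of Bin1, whose PSI fell by 12.5 and 4.48. A 69-nt exon of Cask, which adjoins its 36-nt exon, changed by -3.07 and -12.2 PSI, and a 154-nt exon of Nbea by -6.36 and -10.49. Among all events scored OK or SOK in every library, the next fall after the 9-nt exon of Psap (37.95, the smaller of the 2 differences) belonged to Snx14 (37.5), and the next rise after the 72-nt exon of Ciz1 (28.42) to Pkm2 (28.37). The largest rise, in BC024814 (33.26), is not of a member gene.

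Exons of intermediate PSI elsewhere in the same genes differed by various amounts. In Cask a 36-nt exon, upstream of the switching site, had PSI of 28.98 and 26.17 in siControl and 28.69 and 30.75 in siArglu1, in the order Veh, Dex. In Psap a pair of 3′ splice sites 3 nt apart, at the exon after the one that follows the microexon, gave 62.34 and 68.64 for the longer form in siControl and 61.1 and 61.57 in siArglu1, on 3498 to 4828 junction reads, a difference of -1.24 with vehicle and -7.07 with Dex. The 3 exons that follow the 108-nt exon of Bin1 were also lower after knockdown but under the threshold. They belong to the same run of exons as the 108-nt exon, can share its junction reads and had ratings in the poorer classes. These exons are therefore not independent measurements. The 24-nt exon had 87.54 and 84.24 in siControl and 77.99 and 78.46 in siArglu1. The next exon, also of 108 nt, had 15.71 and 12.67 against 7.73 and 10.92, and the 72-nt exon had 94.09 and 91.15 against 81.59 and 86.67. In Limk2 a 43-nt exon used little in siControl, with 4.48 and 3.76, had 13.33 and 10.34 in siArglu1. Of the 119 covered events, 6 had score N and 11 VLOW in siArglu1 Veh, and none had either score in the other 3 libraries. By reads on genes siArglu1 Veh was not the smallest library (66590878, against 66074574 in siControl Veh). The part of this difference in coverage of the events in the results was not tested.

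The switching exons mostly had a length that is a multiple of 3, which can keep a reading frame. Of the 13 cassette exons and microexons that switched in both pairs, 12 (92.3%) were a multiple of 3 nt long, and so was the 15-nt extension of Cask. Length alone was counted. The 180-nt exon of Limk2 is among the 12, but M21 lists it only in a non-coding transcript, so it has no annotated frame. The share was 54.5% of the 66 other covered exons of the same genes, 60.8% of the 250 exons of other genes that differed by at least 15 PSI in both pairs, 52.0% of 2007 covered exons of other genes with a siControl Veh PSI of 20 to 80, and 40.4% of all 32973 covered exons. The 9 genes were picked by PSI and not by length, but 13 exons in 8 genes are few, and neighbouring exons of Epb4.1l2 and of Ciz1 are not independent, so no test was made. Length and direction are set side by side without a test, because direction comes from the PSI differences that picked the genes. The 5 switching exons of at most 50 nt (1 each in Nbea, Psap and Elmo2 and 2 in Fryl) had lower PSI after knockdown, whereas 6 of the 8 longer ones had higher PSI. Those 6 lie only in Epb4.1l2, Ciz1 and Limk2. Among the exons of other genes past 15 PSI in both pairs, 64 of 74 exons of at most 50 nt and 92 of 176 longer exons had lower PSI. The other 84 longer exons had higher PSI, so longer exons of other genes did not lean to higher PSI.

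**Figure D3:**
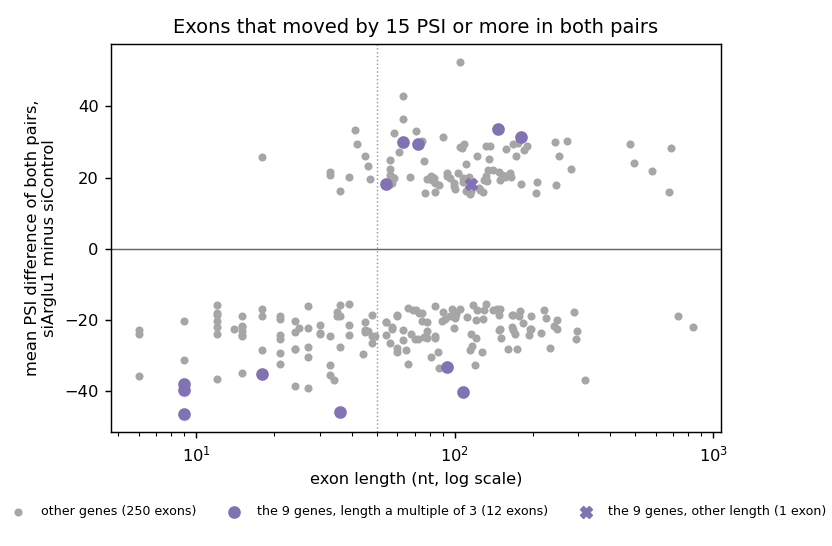
Length of each cassette exon or microexon that differed by at least 15 PSI in both pairs (x axis, nt, log scale) against the mean of its 2 PSI differences, siArglu1 minus siControl (y axis), for the 9 genes (purple, the cross marking the 116-nt exon of Ciz1) and 250 exons of other genes (grey). All 5 exons of the 9 genes left of the dotted line at 50 nt lie below 0.

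Dex was also compared with vehicle within siControl and within siArglu1 cells. Of the 119 covered events, 0 differed by 15 PSI or more between siControl Dex and siControl Veh, against 0.719% of all covered events, and 1 did so between siArglu1 Dex and siArglu1 Veh, against 0.948%. Shares this low leave about 1 event of 119, so the counts do not set the 9 genes apart. At 10 PSI the counts were 5 and 2. No share of all covered events was taken at 10 PSI, so nothing is read from these. The 1 event past 15 PSI was a 3-nt alternative 3′ splice site of Fryl (mm9 chr5:73462344-73462548). With Dex its PSI went from 76.09 to 61.54 in siControl cells, on 46 and 39 junction reads. In siArglu1 cells it went from 81.25 to 55.0, on 16 and 40. Among the 14 switches the change with Dex ran from -4.05 to 13.66 PSI in siControl and from -10.34 to 6.83 in siArglu1, and was under 5 PSI in size in 12 and 11 of them. The 18-nt exon of Fryl had both the largest rise with Dex in siControl (13.66) and a change of -8.5 in siArglu1. The 9-nt exon of Nbea rose by 0.25 with Dex in siControl and fell by 10.34 in siArglu1.

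The amount of mRNA from the 9 genes was a separate measurement, which was not used to pick them. Reads per gene are given as log2 ratios of CPM (reads scaled to library size) with TMM factors and a prior count of 1, and levels as the deposited cRPKM, reads scaled to the mappable positions of the gene and to sequencing depth. Targeted Arglu1 itself had 10165 and 11825 reads in siControl against 2637 and 3254 in siArglu1, in the order Veh, Dex, a log2 ratio of -1.92 with vehicle and -2.15 with Dex. None of the 9 genes reached 0.81 on the log2 scale, the size used in the study, in either pair, beside 15.8% of 12497 genes with vehicle and 12.1% with Dex, and 9 genes are too few to set a count of 0 apart from these shares. At 0.5 the count was 4 with vehicle (Nbea, Elmo2, Limk2 and Ciz1) and 1 with Dex (Limk2), against 35.3% and 28.9% of all genes. Limk2 was past 0.5 in both pairs, as were 23.9% of all genes.

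Bin1, Limk2, Epb4.1l2 and Psap had more reads after knockdown in both pairs. Limk2 had 23.33 and 22.89 cRPKM in siControl and 32.71 and 37.07 in siArglu1, in the order Veh, Dex. Its log2 ratio was 0.52 (exact 95% counting interval 0.47 to 0.57) with vehicle and 0.69 (0.64 to 0.73) with Dex, the highest of the 9. Bin1 had 55.76 and 55.8 cRPKM against 73.12 and 72.78, log2 ratios of 0.42 and 0.38. Epb4.1l2 had 26.64 and 27.89 against 32.81 and 36.02 (0.33 and 0.36). Psap, at the 98.4th percentile of the tested genes in siControl Veh, had 369.5 and 372.06 against 417.63 and 419.83 (0.21 and 0.17). For these 4 genes both siArglu1 libraries were above both siControl libraries.

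Nbea, Elmo2, Ciz1 and Cask had fewer reads after knockdown in both pairs. Nbea had 7.65 and 7.25 cRPKM in siControl and 4.48 and 5.69 in siArglu1, log2 ratios of -0.74 (-0.8 to -0.68) and -0.36 (-0.41 to -0.3). Elmo2 had 12.23 and 11.53 against 7.38 and 8.53 (-0.7 and -0.44). Ciz1 had 26.63 and 26.78 against 18.35 and 22.94 (-0.5 and -0.23), and Cask 10.71 and 10.51 against 8.41 and 8.72 (-0.32 and -0.28). Fryl had 5.72, 5.64 and 5.61 cRPKM in siControl Veh, siControl Dex and siArglu1 Dex and 4.12 in siArglu1 Veh, so its ratio was -0.44 with vehicle and -0.02 (-0.07 to 0.04) with Dex. For Nbea, Fryl, Psap, Elmo2, Limk2 and Ciz1 the counting intervals of the 2 pairs did not overlap.

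The ratios depended on transcript length in these libraries. The median log2 ratio of genes with an implied mappable length over 4 kb was -0.31 with vehicle and -0.15 with Dex, and that of genes under 2 kb was 0.26 and 0.12. Nbea, Fryl and Cask had the longest implied lengths of the 9, at 10.92, 10.99 and 8.21 kb. With the length trend removed the ratio of Nbea was -0.16 and -0.06, and that of Cask turned to 0.15 in the vehicle pair and was -0.04 in the Dex pair. The ratio of Fryl turned to 0.14 and 0.28. The lower levels of these 3 genes can therefore not be told apart from a difference between long and short transcripts, while Limk2 (0.61 and 0.73), Epb4.1l2 (0.52 and 0.46), Bin1 (0.36 and 0.34), Elmo2 (-0.68 and -0.44) and Ciz1 (-0.5 and -0.23) kept their direction.

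**Figure D4:**
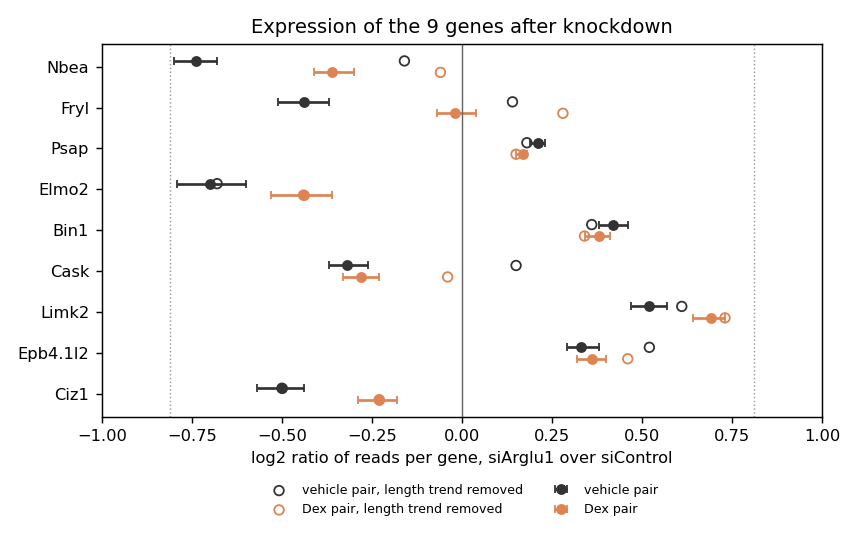
Log2 ratio of reads per gene, siArglu1 over siControl, for each of the 9 genes in the vehicle pair (black) and the Dex pair (orange), with exact 95% counting intervals as bars. Open circles show the ratio with the trend on transcript length removed, and dotted lines mark 0.81 in either direction, which no filled point reaches.

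A fit of knockdown and Dex as additive terms over the 4 libraries, which takes the departure from additivity as its error, put 8 of the 9 genes at an adjusted p under 0.05 by edgeR, with Psap the exception at 0.07, and 7 of 9 by DESeq2. The shares among all genes were 61.6% by edgeR and 48.0% by DESeq2, and pooled libraries without replicates cannot support these p-values as a test of the knockdown.

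Multiplying the level of a gene by PSI gives a rough level of the form with the exon. The form of Nbea with the 9-nt exon was at 6.37 and 6.05 cRPKM in siControl and at 1.89 and 1.81 in siArglu1, and the form without it at 1.28 and 1.2 against 2.59 and 3.88. For Elmo2 the form with the 36-nt exon was at 8.03 and 7.21 against 1.11 and 1.86, 0.14 and 0.26 of the siControl level with vehicle and with Dex. For Psap the form without the 9-nt exon was at 159.25 and 162.59 against 338.49 and 343.09. For Bin1 the form without the 108-nt exon was at 16.77 and 15.89 against 51.69 and 49.53. In Ciz1 the gene total was lower, but the form with the 72-nt exon was at 13.87 and 12.87 in siControl and 14.78 and 18.05 in siArglu1, and the form without it at 12.76 and 13.91 against 3.57 and 4.89. In Limk2 the form with the 180-nt exon was at 10.07 and 9.95 against 24.05 and 28.17, and the form without it at 13.26 and 12.94 against 8.66 and 8.9. The Cask form with the 15-nt extension was at 1.3 and 1.75 against 4.36 and 4.26.

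**Figure D5:**
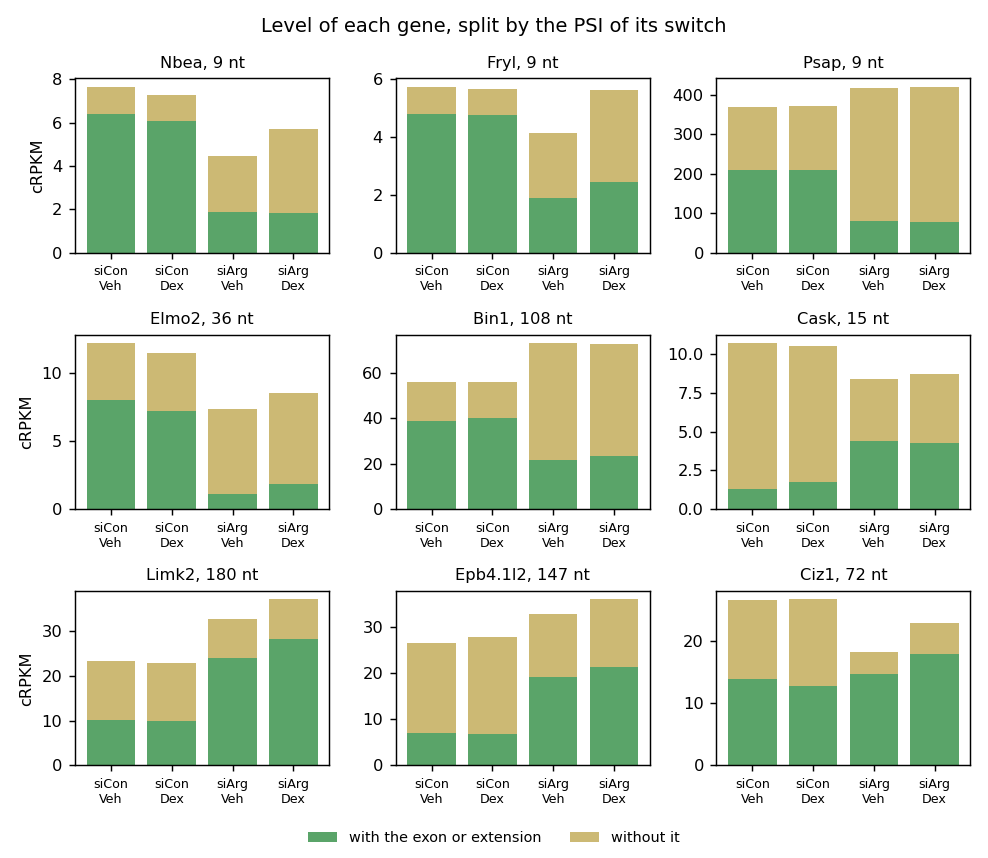
Level of each gene in cRPKM (bar height, y axis from 0, scale differing between panels) in the 4 libraries, split by PSI into the form with the named exon or extension (green) and without it (tan), for 1 switch per gene. The green part is smaller in both siArglu1 libraries in Nbea, Fryl, Psap, Elmo2 and Bin1 and larger in Cask, Limk2, Epb4.1l2 and Ciz1.

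Other genes of the same families and pathways were looked at in 10 lists of 165 genes, of which 143 had enough reads. In both pairs 7 of them were higher by at least 0.81 on the log2 scale and 10 lower, against 4.83% higher and 5.07% lower of all genes. The median log2 ratio over the lists was -0.2 with vehicle and -0.15 with Dex, beside 0.0 over all genes in both. For genes with an implied length over 4 kb it was -0.31 and -0.15. The ratios and medians of the lists keep the length trend, so lower values of long genes cannot be told apart from it. With the trend removed, 14 list genes passed 0.81 in place of 28 with vehicle. In the Dex pair 15 passed in place of 19, and in both pairs 13 in place of 17. Among actin genes of the Limk2 list, destrin (Dstn), which severs actin, had 146.11 and 144.59 cRPKM in siControl and 386.89 and 369.81 in siArglu1 (log2 ratios 1.44 and 1.35), and cofilin (Cfl1), a close relative, had 720.23 and 732.28 against 344.05 and 291.97 (-1.03 and -1.33). The median of this list of 15 genes was -0.16 and -0.14. In the ELMO and DOCK list, of 9 tested genes, Rac1, the GTPase that Elmo2 acts on, had 67.05 and 70.5 cRPKM against 263.86 and 246.77 (2.01 and 1.8). Rac1, Cfl1 and Dstn have close paralogues or processed copies in the genome, which could share reads.

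The Furry list of 11 genes had 1 gene past 0.81 in each direction, Fry (-1.32 and -0.85), the close relative of Fryl, and the kinase gene Stk38l (1.55 and 1.46). Fry, like Fryl, encodes a very large protein, and its ratios are given with the length trend left in. The lower level of Fry can therefore not be told apart from that trend. In the lysosomal list of 16 tested genes, Hexa (1.07 and 0.94) and Lamp2 (0.93 and 0.88) were higher and none lower, with medians of 0.37 and 0.38. Of 7 genes in the list of BEACH proteins, the family of Nbea, Nsmaf (-0.98 and -0.94) was lower. The BAR and membrane bending list of 14 tested genes had Dnm3 (-1.23 and -0.85) and Amph (-1.17 and -1.48) lower, both at under 1 cRPKM. The CASK list of 16 tested genes had Nrxn3 (-2.58 and -2.02), also under 1 cRPKM, lower and Dlg2 (0.91 and 0.93) higher. The spectrin skeleton list of 14 tested genes had Ank3 (-1.81 and -1.53) and Add3 (-0.93 and -0.96) lower. Its medians were -0.64 and -0.46, the lowest of the lists in the Dex pair, with the length trend left in. The replication list of 14 genes had 0 past 0.81 in either pair.

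Among 27 tested regulators of neuronal exons and microexons, Ptbp2, which holds back neuronal exons, had 71.63 and 70.08 cRPKM in siControl and 21.16 and 20.82 in siArglu1 (-1.73 and -1.76). Mbnl2 (-1.31 and -1.16) was also lower and Elavl4 (0.83 and 0.91) higher. In the lists 839 events of 115 genes were covered, and 2 were higher and 5 lower by at least 15 PSI in both pairs, against 0.210% and 0.336% of all covered events. In single pairs 19 were past 15 PSI with vehicle and 13 with Dex, against 1.96% and 1.52%. The 2 higher in both were a 9-nt alternative 3′ splice site of Synj1 and a 56-nt exon of Khdrbs1. The 5 lower were a 12-nt microexon of Dnm1 (PSI 96.75 and 94.53 in siControl, 76.94 and 70.5 in siArglu1), a 36-nt exon of Epb4.1l3 (62.04 and 58.5 against 33.72 and 31.75), a 93-nt alternative 5′ splice site of Add1, a 54-nt exon of Mbnl1 (84.83 and 77.46 against 59.62 and 61.7) and a 34-nt exon of Ptbp2 (90.33 and 89.77 against 62.15 and 44.52). Whether the levels of these regulators have a part in the switches was not tested.

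The 4 libraries held 66074574 to 86541444 reads on genes. The 11 markers of sympathetic neuroblastoma cells reported here were at 1 cRPKM or more in all 4 libraries, with summed levels of 1547 to 2042 cRPKM. The markers went different ways. Phox2a had 44.87 and 47.47 cRPKM in siControl and 98.83 and 96.9 in siArglu1, and Dbh 3.2 and 3.49 against 12.53 and 14.17, whereas Th had 2.58 and 4.71 against 1.05 and 2.54 and Chgb 151.08 and 175.36 against 150.99 and 175.84. Markers of astrocytes, oligodendrocytes, blood cells and fibroblasts summed to at most 1.22 cRPKM per list and library, with Aqp4, Olig2 and Ptprc at 0.0 in all 4. Their part in the switches was not tested.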

How the data were processed

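RNA from N2a cells was sequenced in 4 libraries, 1 per group, each pooled from 3 cultures. Reads had been aligned with Bowtie to mm9, per the submitters' processing notes, and the authors quantified splicing with vast-tools. The deposited PSI values are percent values per exon or splice site with coverage scores, and the deposited gene table holds whole-number counts of reads and cRPKM (an RPKM over mappable positions). The sources used here do not state how cassette exons were scored. The table's 2 ratio columns are the authors' own Dex comparison and were not used. Identical rows were dropped, and a gene's NA reads were taken as 0. The 9 genes and the 10 lists were chosen with earlier results of these data known. All covered events of the 9 genes were examined, those past 15 PSI in either knockdown pair 1 by 1, and in each list up to 3 genes past 0.81 in both pairs were named. A second gene identifier of Fryl had no reads. In the lists Bin2 was not found. A further marker gene of the neuroblastoma list is not reported here.

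Counts were compared by log2 CPM ratios with TMM factors (edgeR 4.0.16, R 4.3.3, prior count 1, at least 75 reads over the 4 libraries), with DESeq2 1.42.0 as an alternative. Implied length was reads per cRPKM, scaled to the library total, and its trend was fitted by lowess with a span of 0.3 (statsmodels 0.14.6). Intervals are exact 95% binomial intervals (scipy 1.17.1) and cover counting error only. Reads behind the PSI of cassette exons are not stated, so those values carry no interval. Only the ratios and fits of gene counts were tested on simulated data, not the splicing steps. Alternatives changed coverage, thresholds, scaling, prior count, unit and length trend.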

Additional observations from a re-analysis of the deposited data

Results flagged for a closer look

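In 2 exons of Fryl the change of PSI with Dex ran in opposite directions in siControl and siArglu1 cells by at least 5 PSI each, with 1 library per group and no test of the difference. PSI of the 18-nt exon changed by 13.66 with Dex in siControl and by -8.5 in siArglu1, with a score of OK in all 4 libraries. PSI of the 128-nt exon in the 5′ UTR changed by 10.89 in siControl and by -6.9 in siArglu1, and its score was N for siArglu1 Veh and LOW for siArglu1 Dex.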

How the results depend on the processing

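No paired analysis was possible because each group had 1 library and the labels carry no replicate numbers, and for the same reason no library could be left out. With exons of complexity C3 or balance class Bn or B2 left out, the events past 15 PSI numbered 9 in the vehicle pair, 8 in the Dex pair and 8 in both, since the construction removes 6 switches. The other alternatives kept these 3 counts within 1.5 times. After Dex, the count of 0 in siControl became 1 with no coverage minimum and 5 at a threshold of 10 PSI. The count of 1 in siArglu1 became 3, 2 at 10 PSI, and 0 when every library had to score OK or SOK. At a log2 threshold of 0.5, 4 member genes passed in the vehicle pair, 1 in the Dex pair and 1 in both, and the additive fits called 8 (edgeR) and 7 (DESeq2).

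With the length trend removed, 14 list genes passed 0.81 in the vehicle pair in place of 28. The same setting moved the ratios of Nbea (-0.16 and -0.06), Fryl (0.14 and 0.28) and Cask (0.15 and -0.04) in the vehicle and Dex pairs, those of Epb4.1l2 (0.52 and 0.46), and the vehicle ratios of Limk2 (0.61), Bin1 (0.36) and Psap (0.18). The vehicle ratio of Psap was also 0.18 with library totals and from cRPKM, and its Dex ratio 0.19 with no minimum on reads. The other 94 such values stayed within their counting intervals. Reads limit the PSI values most in siArglu1 Veh.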
